A study of Salmo salar with 18 samples.

Results

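Atlantic salmon (Salmo salar) held at 12 °C and 100% air saturation (CT) were compared in the liver with salmon that had been warmed to 20 °C at 100% air saturation (WN) and sampled after 3 days at that temperature. The comparison used 12 of the 18 arrays of the series, 6 from WN fish and 6 from CT fish, assigned by the treatment in each sample title. Fish of the third treatment, which were warmed in water of 70% air saturation, took no part in the contrast. They entered the estimate of spread between fish, the filter for probes to test and the common pool of RNA. All fish were post-smolts (the juvenile stage that has moved to the sea), kept in seawater under the same light cycle, hand-fed to satiation and fasted for a day before sampling. WN water was raised in weekly steps over the trial, so that the liver at 20 °C had passed through every lower temperature, whereas CT water stayed at 12 °C throughout. Each treatment was given to 2 tanks, and 3 fish from each tank were put on arrays (WN tanks 2 and 5, CT tanks 3 and 4). Fish were the unit of every test, although the tank was the unit that received the treatment.

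Warming unfolds proteins, and cells answer through heat shock factor, a transcription factor that switches on chaperones of the HSP70, HSP90 and HSP40 families, which refold damaged proteins or hand them to the proteasome. In the endoplasmic reticulum, a separate set of chaperones serves secreted proteins, and SERPINH1 (also called HSP47) is the one that binds procollagen. The liver of an ectotherm also resets its metabolism with temperature, since enzyme rates and energy demand climb as the animal warms. Salmonids carry an additional ancestral duplication of the whole genome, so that many genes exist as a pair of close copies which a short array probe may or may not tell apart.

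The level of each gene was read as the log2 ratio of a fish's liver RNA (Cy5) to a common pool of liver RNA from all 18 fish (Cy3), and a difference is WN minus CT on that log2 scale. A difference of 1.00 stands for a fold change of 2.00. For 3 of the genes described below, the quantitative PCR amplicons used by the study are printed. They show a stretch by which each transcript can be recognised. They are not the array probes. The probe of hsp70 has the symbol HSPA8 in the study's list and the name hsp70 in its PCR panel. Which HSP70 form that probe measures, inducible or constitutive, was not tested. Capitals mark both primer sites.
serpinh1, the collagen chaperone: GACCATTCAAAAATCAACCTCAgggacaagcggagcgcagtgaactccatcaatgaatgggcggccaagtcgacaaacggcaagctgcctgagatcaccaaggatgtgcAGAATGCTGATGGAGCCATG
hsp70, a cytosolic chaperone whose array probe carries the symbol HSPA8: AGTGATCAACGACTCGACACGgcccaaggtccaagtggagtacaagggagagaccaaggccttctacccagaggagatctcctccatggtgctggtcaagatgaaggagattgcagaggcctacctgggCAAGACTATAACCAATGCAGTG
cyp1a1, the cytochrome P450 that oxidises planar aromatic compounds: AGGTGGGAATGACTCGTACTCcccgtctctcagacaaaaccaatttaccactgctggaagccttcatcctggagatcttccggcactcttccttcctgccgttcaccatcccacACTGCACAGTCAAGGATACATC

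Each array carried 43689 probes, and 23846 were measured well enough to be tested. On average 71.7% ± 9.77 of the probes were detected on WN arrays and 65.2% ± 5.10 on CT arrays (SD, n = 6 each, two-sided exact permutation test, p = 0.177). The Cy3 signal of the pool was 158 ± 71.9 times background on WN arrays and 72.5 ± 57.1 times on CT arrays (p = 0.0541 by the same exact test, adjusted p = 0.216 over 4 array measures), and the part of this gap in the results was not tested. Array WN-5 had a dim Cy5 channel, at 14.0 times background. Symbols were known for 1445 tested probes only. They came mainly from a list the study made of probes it called on these same arrays, and the part of that list with the strongest falls could not be read, so that named genes are not independent evidence of change and falls are under-represented among them. The identity of the tissue could be checked only on complement C3, the 1 hepatocyte marker of 13 with a named probe. Its signal was above background on all 6 WN and all 6 CT arrays for probe C138R093, and on 5 of each for C097R144. No named probe matched the marker lists of exocrine pancreas or endothelium.

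Between WN and CT liver 1179 of 23846 probes differed (4.94%), of which 444 were higher in WN (1.86%) and 735 were lower (3.08%), by limma's moderated test with Benjamini-Hochberg adjustment at 0.05. Among probes with a symbol, 707 of 1445 were called (48.9%), 350 higher (24.2%) and 357 lower (24.7%). Of all probes with a value in all 12 fish, 673 of 19495 (3.45%) had no overlap between the WN and the CT fish, and of those with a symbol 388 of 1198 (32.4%). The changes were mostly moderate, with a median size of 1.03 on the log2 scale among called probes, 623 beyond 1 and 49 beyond 2. The 2 directions differed in how often their larger changes had a symbol here. The part of the study's list with the strongest falls could not be read. For sizes of 1.5 to 2 a symbol stood beside 37 of 40 rises but 2 of 81 falls, and over 2 beside 20 of 22 rises but 0 of 27 falls. In single WN fish the median over all probes that rose lay between 0.888 and 1.14 above the CT mean, and the median over all that fell lay between −0.908 and −1.27. The probes were selected on this contrast, so those medians describe how alike the 6 WN fish were and test nothing. In the gene lists below, the 4 genes with the largest called change, the lead genes and the largest exception were named by rule, and further members were chosen after their values were seen.

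**Figure D1:**
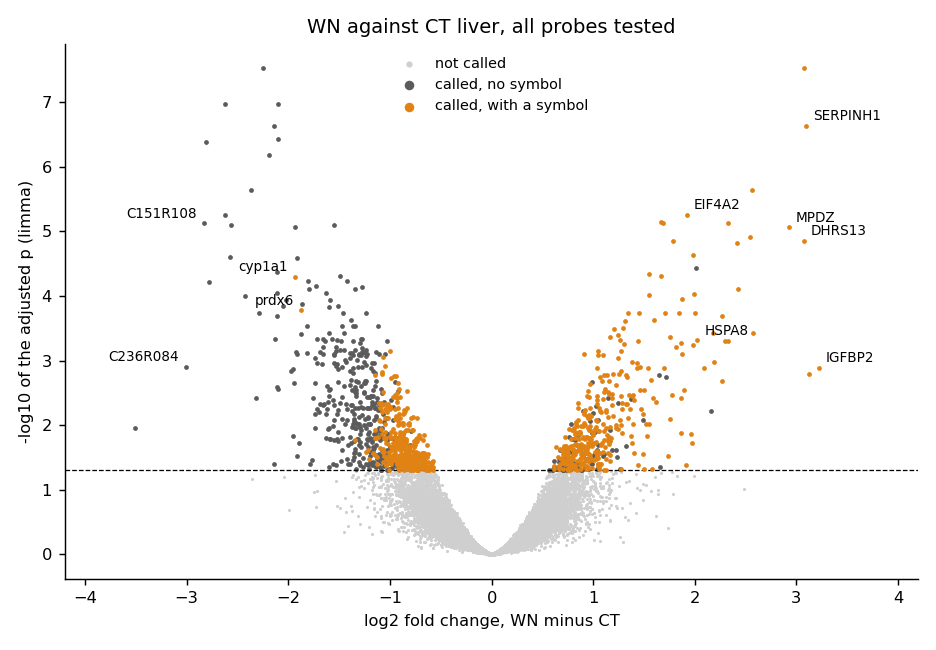
Difference between WN and CT liver (x axis, log2) against the −log10 of limma's adjusted p (y axis) for the 23846 probes tested; the dashed line is the threshold of 0.05. Orange called probes carry a symbol and dark grey called probes do not. Orange points reach 3.22 on the right, while the left arm beyond −1.2 is nearly all grey.

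Chaperones of the cytosol rose together. Of 31 tested probes for 17 genes, 22 were higher in WN and 1 was lower, where 24.2% of all named probes were higher. The median difference was 1.29, against −0.638 over all named probes. HSPA8, the probe of the hsp70 amplicon shown above (C007R083), ranged from 0.13 to 0.85 in WN fish (median 0.69) and from −2.77 to −0.46 in CT fish (median −1.42). All WN fish were above all CT fish, and the difference was 2.02 (SE 0.316, adjusted p = 0.000484), a 4.06-fold rise. A second HSPA8 probe, C116R145, rose by 1.54 (SE 0.269, adjusted p = 0.0013). Among the HSP40 partners that load clients onto HSP70, DNAJA4 (C120R137) rose by 2.09 (1.47 to 5.73 over the alternatives, and not called without background correction or with plain subtraction), and DNAJC12, DNAJA1 and DNAJB6 by 1.30, 1.04 and 0.966. One of the 2 DNAJA4 probes, C194R097, was 1.43 higher without passing the test (adjusted p = 0.0948). Of 13 probes for HSP90 and its partners, 10 rose and none fell. HSP90AA1, the stress-inducible HSP90, rose by 1.36 (C182R027, SE 0.283, adjusted p = 0.00564), SUGT1 by up to 1.32 on 3 of its 4 probes, UNC45A, a myosin chaperone, by 1.12 and TTC4 by 0.969. Clusterin (CLU), a secreted chaperone, rose on all 5 of its probes, by 0.883 to 2.30. The exception was HSPA14, a ribosome-associated HSP70 relative, which fell by 0.929 (adjusted p = 0.0325). The 3 probes of HSF1, the heat shock factor itself, were 1.33 to 1.67 higher without passing the test (adjusted p between 0.0542 and 0.0755). Several of these calls depended on single fish. FKBP5, an HSP90 partner of steroid receptors, had a difference of 1.44, and its call was lost when any 1 of 9 arrays was left out (adjusted p up to 0.0973). The same held for hsp90ab1 with 10 arrays (0.794, up to 0.0891), the second HSP90AA1 probe with 9 (1.05, up to 0.09) and HSPA14 with 7 (up to 0.0858). Over the 12 fits that left out 1 fish, 17 to 23 chaperone probes were called higher. Centring each array on its median in place of the loess left 11 called.

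In the endoplasmic reticulum, SERPINH1 stood apart from the other chaperones. Its probe C205R085 lay between −0.42 and 0.68 in WN fish (median 0.34) and between −3.63 and −2.04 in CT fish (median −2.91). The 6 WN fish lay near the level of the pool and every CT fish lay far below them, a difference of 3.09 (SE 0.263, adjusted p = 2.3e-07) or 8.54-fold. All 5 SERPINH1 probes rose, by 2.42 to 3.09, and the 4 that matched RefSeq represented both of a pair of loci. For C236R132, the probe of the amplicon above, no CT array was above background in Cy5, so that the size of its rise is uncertain. By the Cy5 signal alone, with CT values floored at the lowest detected signal, WN was 3.79-fold higher. That scale is not divided by the pool and is open to dye bias, so it sets no firm limit on the ratio. Other folding factors rose less. HERPUD2, a membrane protein of the degradation route, rose by 1.78, CRELD2 by 1.03, CNPY2 by 0.959 and HSP90B1, the HSP90 of the endoplasmic reticulum, by 0.912. In all, 12 of 20 probes of the list were higher, among them the 5 SERPINH1 probes, and 2 were lower. Of all named probes 24.2% were higher and 24.7% lower. Both lower probes were for FKBP10, a prolyl isomerase of procollagen (−0.882 and −0.851). Its larger fall was lost without any 1 of 7 arrays (adjusted p up to 0.0868). Probes of calreticulin (CALR), MANF, FKBP2 and the disulfide isomerase P4HB had differences of −0.552 to −0.879 and were not called. DNAJB9 was called at 1.08, but not when any 1 of 9 arrays was left out (adjusted p up to 0.0898). With 1 fish left out, 9 to 12 probes of this folding list were higher and 0 to 4 lower. With the slide as a block 10 were higher and 0 lower, and after centring on the median 7 and 0. Genes that carry secretory proteins into the endoplasmic reticulum or glycosylate them went both ways, with 3 probes of 18 higher and 4 lower.

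Collagens and matrix proteins were split. COL4A1 and COL18A1, collagens of basement membranes, rose by 0.956 and 0.847, while COL1A1, the main fibrillar chain, had a difference of −0.684 and was not called (adjusted p = 0.11). Among proteins that shape the matrix, the collagenase MMP13 rose by 2.26 (C245R152, SE 0.415, adjusted p = 0.00203) and EFEMP2, which assembles elastic fibres, by 1.50. MFAP2, a microfibril protein, went the other way on 3 of 4 probes, by 0.857, 0.913 and 1.09. Its largest fall was not called without WN-1, WN-2 or CT-3 (adjusted p up to 0.0618). Of 20 matrix probes 10 were higher and 5 lower, where 24.2% of all named probes were higher and 24.7% lower. Among those rises, 5 were the SERPINH1 probes already described, and the falls came from 2 genes. Leaving out 1 fish in turn left 8 to 10 higher and 1 to 5 lower, with the fewest falls without WN-1. With the slide as a block 9 were higher and 1 lower, and after centring on the median 7 and 0.

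**Figure D2:**
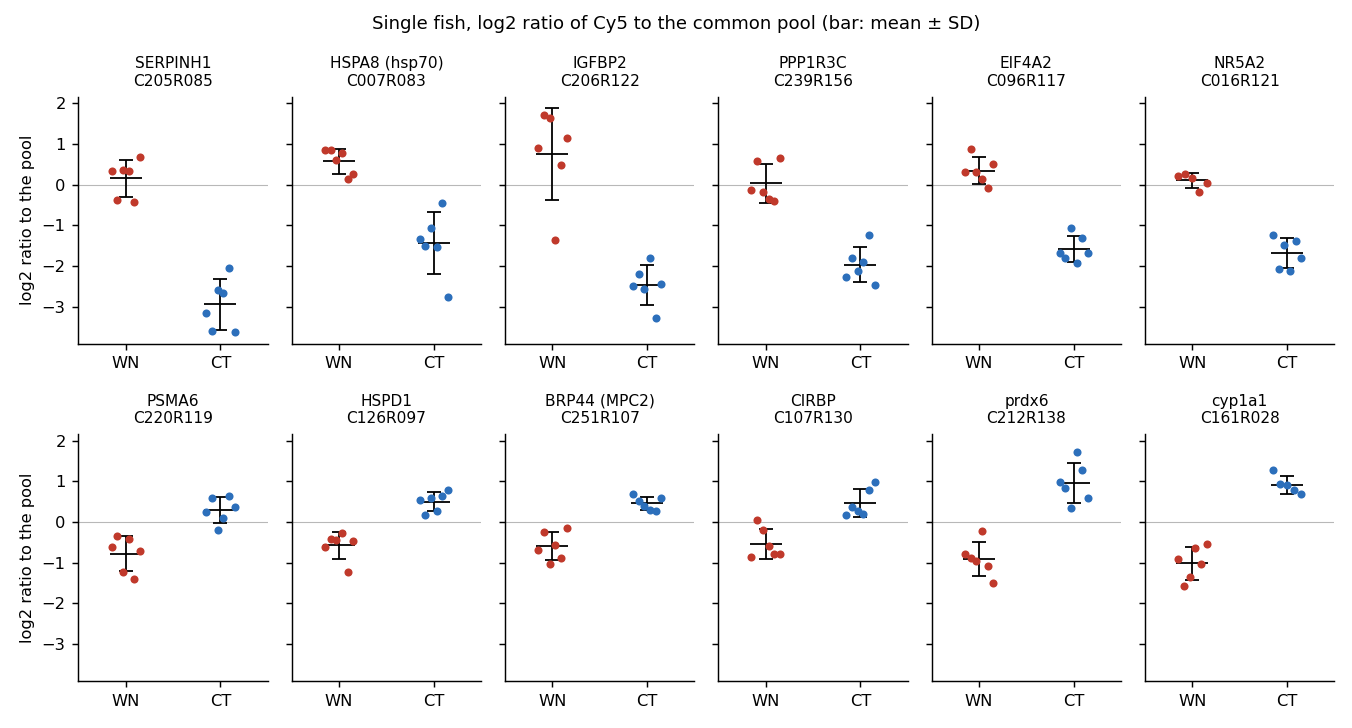
Log2 ratio to the common pool (y axis) of single WN and CT fish for 12 named probes, with the mean and SD as bars (n = 6 each, 5 WN for NR5A2 and 5 CT for cyp1a1). In the upper row all WN fish lie above all CT fish, and in the lower row they lie below them.

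The proteasome, which degrades proteins marked by ubiquitin, moved against the chaperones. Of 70 tested probes for 26 genes, 38 fell and 1 rose, where 24.7% of all named probes fell. The median difference was −0.769, against −0.638 over all named probes. In the alpha ring of the core, which gates entry, 18 of 28 probes fell, in the beta ring, which holds the proteolytic sites, 8 of 14, in the non-ATPase subunits of the regulatory cap 8 of 11 and in its ATPases 3 of 6. PSMA6 (C220R119), an alpha-ring subunit, ranged from −1.39 to −0.35 in WN fish (median −0.65) and from −0.19 to 0.65 in CT fish (median 0.31). The groups did not overlap, and the difference was −1.08 (SE 0.219, adjusted p = 0.00489). Of 10 PSMA6 probes all were lower in WN and 6 were called. PSMA4 fell by up to 1.05, PSMA7 by up to 1.02, PSMB7 by up to 0.933, PSMC1 by 0.936 and PSMD11 by up to 0.87. PSME2, an activator induced by interferon, fell by 1.15 (adjusted p = 0.0117). The only rise was NFE2L1 (0.815), the transcription factor known in mammals to restore proteasome genes after their inhibition, and it was not called without CT-6 (adjusted p = 0.0608). Every WN fish had a lower median over the 70 probes than every CT fish, between −1.01 and −0.606 relative to the CT mean in WN and between −0.332 and 0.142 in CT. Most symbols came from a list of probes called on these arrays, so this separation describes the fish and tests nothing. The citrate cycle and pyruvate list parted the fish as fully, at −1.02 to −0.557 in WN and −0.108 to 0.212 in CT. The differences of single proteasome probes were small enough that the count of falls depended on the processing. It was 24 to 46 when 1 fish was left out, with 24 without CT-4 or CT-6, 21 with the slide as a block and 3 after centring on the median. The median difference of the proteasome list was −0.743 with the slide as a block and −0.767 after that centring.

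Of 23 probes for ubiquitin, its relatives and their conjugating enzymes, 12 fell and 4 rose. The shares over all named probes were 24.7% and 24.2%. UCHL3, which frees ubiquitin and NEDD8 from their conjugates, fell by 1.08 (SE 0.192, adjusted p = 0.0015), with WN fish from −1.03 to 0.03 (median −0.36) and CT fish from 0.43 to 0.95 (median 0.64). NEDD8 itself fell by 0.872 and SUMO2 by 0.88, and the SUMO2 call was lost without CT-4 or CT-6 (adjusted p up to 0.0594). RNF7, a subunit of cullin ligases, rose by 0.974, and CUL3, the scaffold of one such ligase, by 0.717 (not called without CT-1, adjusted p = 0.0577). Calls depended on single fish, with 6 to 12 falls and 1 to 4 rises when 1 was left out (6 falls without CT-1, CT-6 or WN-5, 1 rise without CT-1), 3 falls with the slide as a block and 1 after centring on the median. Of 30 probes for lysosomal enzymes, the other route of protein breakdown, 10 were lower and 3 higher, where 24.7% of all named probes were lower. With autophagy genes included, 11 falls became 4 without CT-6 and 2 with the slide as a block or after centring on the median, and 5 rises became 1 without CT-1, CT-2 or WN-1. CTSH, a cathepsin, fell on both named probes, by 1.08 and 1.09.

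Genes of translation went both ways, where 24.2% of all named probes rose and 24.7% fell. Ribosomal proteins of the cytosol rose on 7 of 12 probes and fell on 1. RPS2 (C084R113) lay between −0.53 and 0.79 in WN fish (median 0.22) and between −2.72 and −1.04 in CT fish (median −1.75), with no overlap and a difference of 1.98 (SE 0.316, adjusted p = 0.000573). RPL32, RPL23A, RPL13 and RPS18 rose by 1.39, 1.33, 1.07 and 1.07, whereas RPS23 fell by 0.968. Only 11 of the 79 cytosolic ribosomal proteins listed had a named probe. Of the initiation factors, EIF4A2, the helicase that opens the messenger's leader, rose on both probes, by 1.92 (C096R117, SE 0.202, adjusted p = 5.5e-06) and 1.57. The poly(A)-binding proteins PABPC4 and PABPC1 rose by 1.39 and 1.12, and the elongation factors EEF1A1 and EEF2 by 0.961 and 0.877. EIF4A3, the relative of EIF4A2 in the exon junction complex, fell by up to 0.837, EIF2S2 by 0.847 and BTF3L4, which binds nascent chains, by 0.909. Factors that assemble ribosomes in the nucleolus fell on 6 of 24 probes, near the share over all named probes, and rose on 4. REXO4, an exonuclease, had the largest rise there, at 1.69 (SE 0.184, adjusted p = 7.39e-06). NHP2L1, which binds small nucleolar and U4 RNA, fell by 1.03 and was not called without WN-1 (adjusted p = 0.0571). Of 26 translation factor probes 7 rose and 7 fell. Leaving out 1 fish gave 5 to 8 ribosomal probes higher. It gave 2 to 7 translation factor probes lower, with the fewest of the falls without CT-4 or CT-5. For ribosome assembly it gave 2 to 4 probes higher and 2 to 7 lower. After centring on the median 3 ribosomal probes rose, and of the translation factor probes 5 rose and 0 fell.

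Splicing factors also went both ways, where 24.2% of all named probes rose and 24.7% fell. Among SR proteins, hnRNPs and their kinases, 9 of 22 probes rose and 7 fell, and among the core particles 8 of 24 fell and 2 rose. SRPK1, the kinase that phosphorylates SR proteins, rose by 1.69 (C150R089, SE 0.296, adjusted p = 0.00129), SFRS1 (now SRSF1) by 1.34 and SRSF6 by 1.17, none with overlap between the groups. SRSF2 rose on 3 probes by 0.719 to 1.13, of which the largest was not called without any 1 of 5 arrays (adjusted p up to 0.0895). The falls included EWSR1 (−1.11), SNRPD2, a ring subunit of the core particles, on 4 probes by 0.713 to 1.02, and RBM4 by 0.988. CIRBP, the RNA-binding protein known for its induction by cold, ranged from −0.87 to 0.05 in WN fish (median −0.69) and from 0.18 to 0.98 in CT fish (median 0.33) on probe C107R130. No WN fish reached the lowest CT fish, and its level fell by 1.00 (SE 0.206, adjusted p = 0.00523). The other CIRBP probe, C255R069, was 0.741 lower without passing the test (adjusted p = 0.0587). Over the whole splicing list, 11 rises and 15 falls became 7 to 11 rises (7 without CT-2) and 8 to 15 falls (8 without CT-4, CT-6 or WN-1) with 1 fish left out, and 3 of each after centring on the median. TAF15, a relative of EWSR1, was called at −0.985 but not when any 1 of 8 arrays was left out (adjusted p up to 0.0858).

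Among genes of DNA synthesis and cell division more probes fell than rose, with 21 of 52 lower and 5 higher. Of all named probes 24.7% were lower and 24.2% higher. The median difference of the list was −0.76, against −0.638 over all named probes. DUT, which keeps uracil out of DNA, fell on 4 probes by 0.943 to 1.14. The spindle motor KIF15 fell by 1.06, CKS1B, a partner of cyclin-dependent kinases, by 1.02, PTTG1 (securin) by 1.01 and DTYMK, which makes thymidine diphosphate, by 1.01. CETN3, a centriole protein outside this list, had one of the 10 largest non-overlapping falls of the named genes, at −1.15 (SE 0.206, adjusted p = 0.00166), with WN fish from −0.44 to −0.08 (median −0.30) and CT fish from 0.17 to 1.49 (median 0.86). PCNA, the sliding clamp of replication, was called on 2 of its 3 probes at −0.651 and −0.768, and both calls were lost when single arrays were left out (10 and 9 of the 12 arrays, adjusted p up to 0.113). The opposite direction was taken by USP1 (1.04), RAD21, a cohesin subunit (1.00), ARHGAP11A (0.956) and BANF1 (0.779). TACC3, called at 1.11, was lost without any 1 of 10 arrays (adjusted p up to 0.116). The number of falls in this list was the least stable of the larger lists, at 6 to 22 with 1 fish left out (6 without CT-6, 8 without CT-4, 9 without WN-1), 9 with the slide as a block and 1 after centring on the median. Purine and pyrimidine synthesis fell on 6 of 13 probes, led by ADSL at −1.04, and rose on 1, NT5C2, a nucleotidase, at 1.53. Those 6 falls became 3 without any 1 of CT-2, CT-4, CT-6, WN-1, WN-2 or WN-5, 1 with the slide as a block and 0 after centring on the median.

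In the mitochondrial lists more probes fell than rose, where 24.7% of all named probes were lower. The citrate cycle and pyruvate list had 11 of 24 lower and 2 higher. The respiratory chain had 6 of 16 and 2, and chaperones and import 7 of 23 and 1. Their medians were −0.777, −0.757 and −0.707, against −0.638 over all named probes. Mitochondrial ribosomal proteins fell on 3 of 10 probes and rose on 2. The pyruvate carrier subunit BRP44 (now MPC2), which admits pyruvate to the matrix, fell on all 4 of its probes, by 0.922 to 1.05. On C251R107 the WN fish lay between −1.02 and −0.14 (median −0.62) and the CT fish between 0.27 and 0.69 (median 0.46), a difference of −1.05 without overlap (SE 0.183, adjusted p = 0.00122). Its partner BRP44L (MPC1) fell by 0.724. PDK3, a kinase that shuts the pyruvate dehydrogenase complex, rose by 1.08 (not called without WN-2, CT-1 or CT-4, adjusted p up to 0.0531). Within the citrate cycle and its transhydrogenase, 6 of 17 probes fell, among them NNT, which fell by 1.00, IDH2 (−0.939), SUCLG1 (−0.871), SDHD (−0.765) and SDHC (−0.923 on its called probe). SDHA, the flavoprotein of the same complex as SDHC and SDHD, rose by 1.05 (C063R041, SE 0.175, adjusted p = 0.000827). In the respiratory chain ATP5G3, a rotor subunit of ATP synthase, fell by 1.00, COX7A2 by 0.841 and the electron carriers ETFA and ETFB by 0.728 and 0.797. NDUFA4 rose by 1.98 and was not called without CT-6 (adjusted p = 0.0551). The uncoupling protein ucp2 fell by 1.15 (SE 0.274, adjusted p = 0.0157), with WN fish from −0.88 to 0.86 and CT fish from 0.02 to 1.54, which overlapped. HSPD1, the mitochondrial HSP60, was opposite to the chaperones of the cytosol. On C126R097 it ranged from −1.22 to −0.27 in WN fish (median −0.46) and from 0.17 to 0.80 in CT fish (median 0.58), a difference of −1.08 (SE 0.194, adjusted p = 0.00162). A second HSPD1 probe was called at −0.826 but not without any 1 of 9 arrays (adjusted p up to 0.103). CLPX, the unfoldase of the matrix protease, rose by 1.00 (not called without CT-1 or CT-6, adjusted p up to 0.0519), and import components fell on 4 of 14 probes. With 1 fish left out, 5 to 12 probes of the citrate cycle and pyruvate list were lower (5 without CT-6). In the chaperone and import list 2 to 8 were lower (2 without CT-1 or CT-6), and in the respiratory chain 3 to 6. In that order the falls were 5, 3 and 3 with the slide as a block, and 1, 1 and 2 after centring on the median.

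Of 28 probes of carbohydrate metabolism 7 rose and 10 fell, where 24.2% of all named probes rose and 24.7% fell. After centring on the median 5 rose and 1 fell. Glycogen genes rose on 4 of 7 probes and fell on 2, and the largest rise of the list was a regulator of glycogen. PPP1R3C, which targets protein phosphatase to glycogen and so favours its synthesis, rose on all 3 probes, by 1.59 to 2.00. Its levels on C239R156 were −0.40 to 0.67 in WN fish (median −0.15) and −2.47 to −1.24 in CT fish (median −2.0), without overlap (difference 2.00, SE 0.285, adjusted p = 0.000185). EPM2A (laforin), a phosphatase of glycogen, rose by 1.46. GAA, the lysosomal enzyme that breaks down glycogen, fell by 0.698. GAPDH rose by 1.87 (SE 0.31, adjusted p = 0.000793), with WN fish from −0.64 to 0.90 and CT fish from −1.96 to −1.08. HKDC1, a hexokinase, fell by 1.05, and the pentose phosphate enzymes TALDO1 and RPE fell on 2 probes each, by 0.642 to 0.907. PCK1, the control enzyme of gluconeogenesis, was 0.623 lower (adjusted p = 0.0281) and not called without any 1 of 5 arrays (adjusted p up to 0.0723). Glucokinase (gck) had the largest difference of the list in the negative direction, at −1.37, and was not called (adjusted p = 0.215). The 6 WN fish lay between −2.23 and −0.87, and 4 of 6 CT fish lay between −1.82 and −0.47, whereas CT-4 and CT-5 stood at 1.61 and 2.59.

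Lipid genes changed in both directions. ACSS2, which makes cytosolic acetyl-CoA from acetate, fell by 1.04 (SE 0.217, adjusted p = 0.00567), LCAT, which esterifies cholesterol in plasma lipoproteins, by 0.992, and the fatty acid oxidation genes ECH1, HADHA, SLC25A20 and ABCD3 by 0.614 to 0.825. The liver fatty acid binding protein FABP1 rose by 0.983 and lipoprotein lipase (LPL) by 0.807. NR5A2 (LRH-1), a nuclear receptor that drives bile acid synthesis, rose on both probes. On C016R121 its levels were −0.18 to 0.26 in 5 WN fish (median 0.18) and −2.13 to −1.23 in 6 CT fish (median −1.64), which gave 1.79 (SE 0.201, adjusted p = 1.39e-05). NR0B2 (SHP), known in mammals as the repressor of NR5A2, fell by 0.924 and was not called without WN-5 or CT-6 (adjusted p up to 0.0612). CYP8B1, a bile acid hydroxylase, had a difference of −0.696 and was not called (adjusted p = 0.112). In amino acid metabolism CSAD, which makes the precursor of taurine, rose by 1.87 (SE 0.429, adjusted p = 0.013) and PYCRL, of proline synthesis, fell by 1.10. MTHFD1, a folate enzyme, rose by 1.28 on one probe and was 0.877 lower on another that was not called.

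The 2 largest called falls with a symbol were those of cyp1a1 and prdx6, both genes of the study's PCR panel. A symbol stood beside only 2 of 81 falls of 1.5 to 2 and 0 of 27 over 2. Their rank therefore does not show that detoxification genes fell most. The cyp1a1 probe C161R028 lay between −1.58 and −0.54 in WN fish (median −0.97) and between 0.69 and 1.28 in 5 CT fish (median 0.91). The gap between the groups was wider than the range within either, and the difference was −1.93 (SE 0.241, adjusted p = 5.05e-05). A second probe, C206R091, was 1.08 lower and not called (adjusted p = 0.0621), with CT-2 at −1.08 among the WN values. Peroxiredoxin prdx6, which reduces peroxides of phospholipids, fell by 1.87 (SE 0.264, adjusted p = 0.000164), with WN fish between −1.5 and −0.22 (median −0.93) and CT fish between 0.35 and 1.72 (median 0.92). PRDX1 and PRDX5 fell by 0.731 and 0.844 and the metallothionein MT2 by 0.821. Rises were seen for the selenoprotein SEPW1 on 3 probes (1.05 to 1.35), for the carboxylesterase CES2 (1.27), for TXNRD1 (0.618) and for NFE2L2 (NRF2), the transcription factor of the antioxidant response (0.909). Catalase (cat), thioredoxin (TXN) and GSTT2B had differences of 0.519, 0.79 and −0.627 and were not called. Over the redox and detoxification list, 8 of 38 probes rose and 10 fell, where 24.2% of all named probes rose and 24.7% fell. The falls became 6 without CT-1, CT-6 or WN-1, 4 with the slide as a block and 2 after centring on the median. The rises were 9 with the slide as a block and 4 after that centring.

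Of 24 probes for genes of leukocytes, 11 rose, 1 fell and 12 were not called, where 24.2% of all named probes rose. Chemokines and granule proteins rose on 5 of 10 probes and fell on 0. Lymphocyte genes rose on 6 of 14 and fell on 1. The median difference was 1.11 over 10 probes of chemokines and granule proteins and 0.0616 over 14 probes of lymphocyte genes. GIMAP7, a GTPase of lymphocytes, rose on both probes, by 2.27 and 1.32. Probe C180R027 ranged from −0.05 to 1.27 in WN fish (median 0.45) and from −2.79 to −0.44 in CT fish (median −1.76), without overlap (SE 0.327, adjusted p = 0.000203). DOCK8, an actin regulator of lymphocytes and dendritic cells, rose by 1.38 and 0.939, and NCKAP1L, a WAVE complex subunit of blood cells, by 1.19. The probe shared by MPO and EPX, the granule peroxidases, was 1.41 higher (adjusted p = 0.0267) and not called without any 1 of 6 arrays (adjusted p up to 0.0719). Immunoglobulin probes went apart from these, since IGKC fell by 0.927 on 1 of 2 probes (not called without any 1 of 8 arrays, adjusted p up to 0.103), the 3 IGHM probes had differences of −0.862 to −0.739 and were not called, and IGH (C251R139) rose by 1.22. The chemokine il8 was 0.826 higher and the antimicrobial peptide camp-a 0.317 higher, neither called, with wide overlap. In whole liver, more or fewer cells of a type and more or less RNA per cell cannot be told apart. Over the marker list of leukocytes, 8 of 19 genes had named probes, and of 10 probes 2 rose and 1 fell. Of these, 7 had differences below 0, all for immunoglobulins or the receptor TLR9 (−0.826, not called). Of the erythrocyte markers 5 of 11 had named probes, of which GYPC and GFI1B rose by 1.25 and 0.947 and hba4, ALAS2 and CA2 were 0.568 to 0.964 lower without passing the test. The thrombocyte receptor P2RX1 rose by 0.959 and the biliary keratin KRT8 by 0.792. The part of cell composition in the leukocyte result was not tested. The count of rises was 7 to 12 with 1 fish left out (7 without CT-6) and 6 after centring on the median or with the slide as a block.

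Other immune genes showed no common direction. GBP4, a guanylate-binding protein induced by interferon, rose by 1.59 (SE 0.233, adjusted p = 0.000237), with WN fish from −0.17 to 0.55 and CT fish from −2.49 to −0.92. IRF2, an interferon regulatory factor, rose by 1.11 and RFXAP, which switches on class II genes, by 1.14. IFI30, the thiol reductase of class II processing, fell by 0.748 and 0.933. Both tapasin probes (TAPBP 0.743, tapbp 0.602), mhcii (0.481) and JAK2 (0.934) were not called. In the complement, coagulation and acute phase list 5 of 13 probes rose and 1 fell, where 24.2% of all named probes rose. The largest rise was that of C071R068, annotated LOC106585653 and named c1ql2 in the PCR panel, a relative of complement C1q, at 3.12 (SE 0.544, adjusted p = 0.00159), with WN fish from −1.14 to 0.87 and 5 CT fish from −4.38 to −1.42. TFPI, an inhibitor of coagulation, rose on 2 probes by 1.46 and 0.883 and APOH by 1.62. Serum amyloid SAA1 (1.27) and complement C5 (−0.966) were called but lost without any 1 of 8 and any 1 of 5 arrays (adjusted p up to 0.114 and 0.0755). With 1 fish left out, 3 to 5 probes of this list rose. C3 was 0.794 and 0.818 lower on its 2 probes and not called.

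Hormone and stress signalling contributed the largest named rise. IGFBP2 (C206R122), a binding protein of insulin-like growth factors, ranged from −1.35 to 1.72 in WN fish (median 1.03) and from −3.28 to −1.80 in CT fish (median −2.46). All WN fish were above all CT fish, with WN-4 the lowest, and the difference was 3.22 (SE 0.564, adjusted p = 0.00129). SGK2, a kinase related to the glucocorticoid-induced SGK1, rose by 2.17 (SE 0.33, adjusted p = 0.000368), the vitamin D receptor VDR by 1.15 and DEPTOR, an inhibitor of mTOR, by 0.834. RRAGA, which brings amino acid signals to mTOR, fell by 0.924 and was not called without WN-3 (adjusted p = 0.0504). The DIO3 probes, for the deiodinase that inactivates thyroid hormone, had differences of −0.997 and −1.13 and were not called. Of 22 probes for death and immediate early genes 7 rose and 2 fell, where 24.2% of all named probes rose and 24.7% fell. After centring on the median 3 rose and 0 fell. Death genes rose on 6 of 13 probes and fell on 1. AP-1 and immediate early genes rose on 1 of 9 and fell on 1, with a median of −0.614. The initiator caspase CASP8 rose by 1.45 (SE 0.206, adjusted p = 0.000182), the AP-1 member JUND by 1.86 and the receptor RELT by 1.16. PARP1, a sensor of DNA breaks, rose on 3 probes by 0.852, 0.899 and 1.50, the last not called without any 1 of 8 arrays (adjusted p up to 0.118). CARD8 was called lower at −0.992, with no WN array above background in Cy5, and its call was lost without any 1 of 8 arrays (adjusted p up to 0.086). Of 18 oxygen sensing genes listed, 3 had a tested probe, and none of these was called. HIF1A, the hypoxia-inducible factor, and EGLN2, one of the enzymes that marks it for destruction, had differences of −0.619 and −1.04 (adjusted p = 0.0748 and 0.07). Of 21 circadian clock genes 3 had a tested probe, none of them called.

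**Figure D3:**
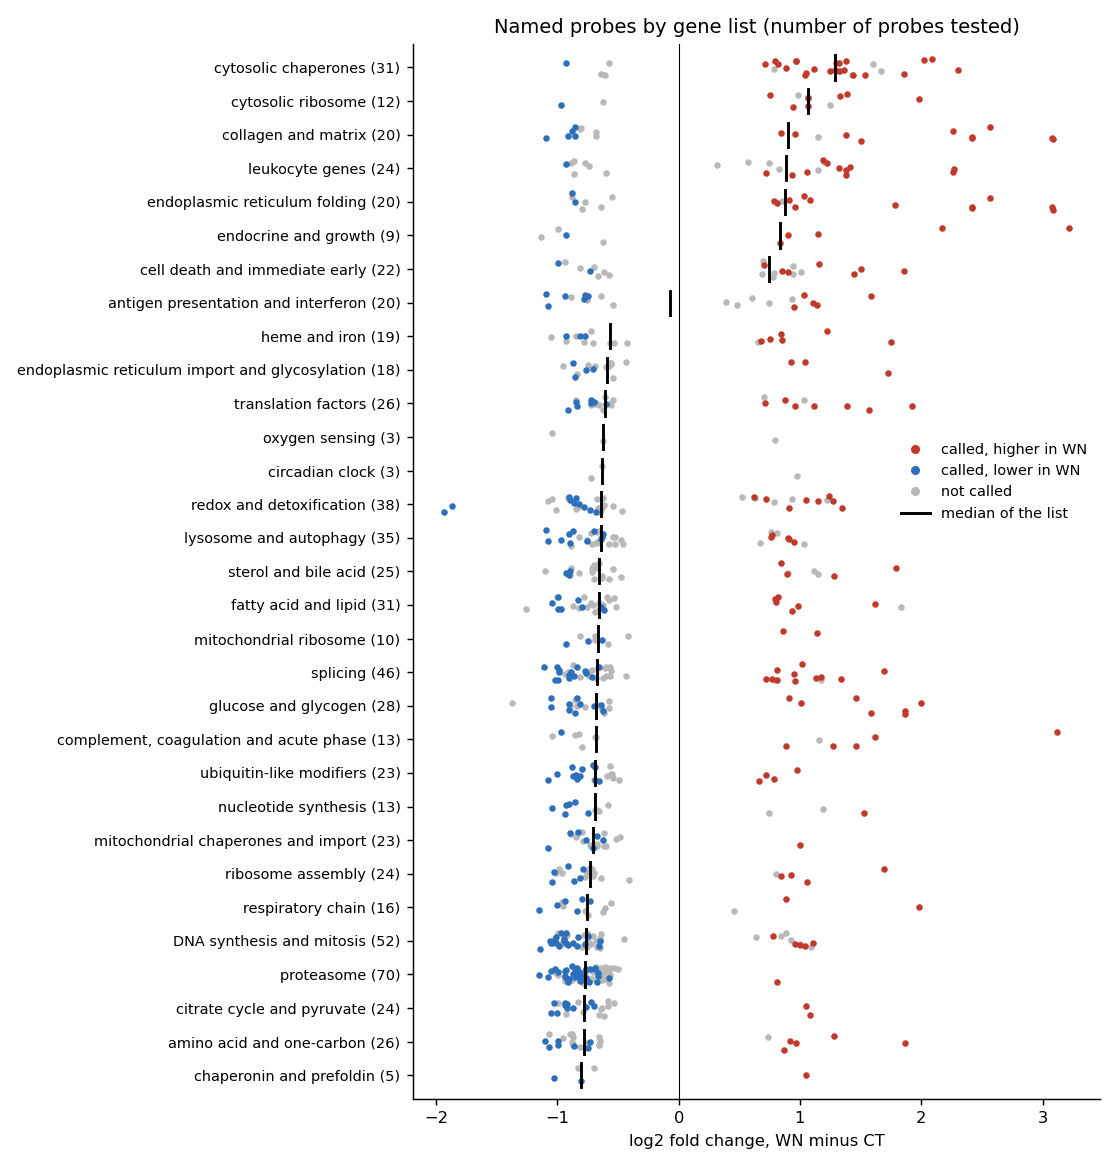
Difference between WN and CT (x axis, log2) of every named probe tested, by gene list (y axis, number of probes in brackets); red and blue points are called higher and lower in WN, grey points are not called, and black bars are list medians. Cytosolic chaperones have the highest median, 1.29, and the 70 proteasome probes lie almost entirely left of 0. Few points lie near 0 because most symbols come from a list of called probes.

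**Figure D4:**
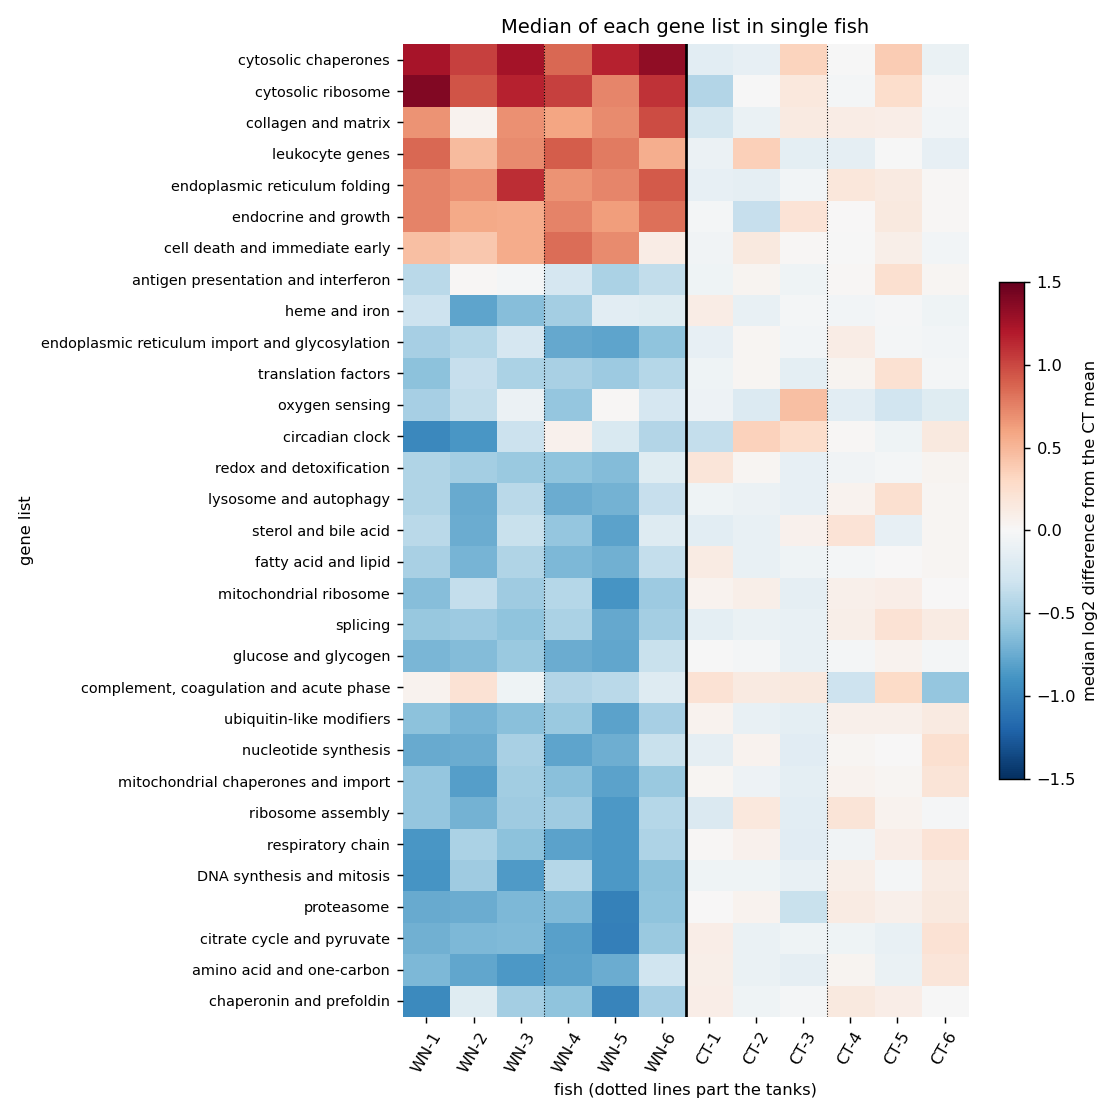
Median difference of each gene list from the CT mean (colour, log2) in each of 6 WN fish, left, and 6 CT fish, right; dotted lines part the tanks of a treatment. Cytosolic chaperones stand at 0.865 to 1.33 in WN fish and −0.160 to 0.381 in CT fish. Most symbols come from a list of called probes, so these medians test nothing.

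The study had selected 41 genes for quantitative PCR, and 40 of their array probes could be tested here. On the arrays 14 were higher in WN, 7 were lower and 19 were not called. The 7 falls were cirbp, ctsh, cyp1a1, hspd1, prdx6, rraga and ucp2. Of the genes not called, apod (a lipocalin), mmp9 and jak2 had differences of 1.83, 1.15 and 0.934 with standard errors of 0.559, 0.38 and 0.301. For 3 genes of the panel the probe was given differently in separate tables of the study, and 1 of the candidate probes was used.

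Where a gene had several named probes, they mostly moved together. Most of these probes carry a symbol because the study called them on these arrays. The counts that follow describe them and are no separate support for a gene. Of 207 symbols with at least 2 tested probes, 190 had differences of 1 sign on all of them, and 85 had at least 2 probes called in the same direction. Called probes went both ways for 6 symbols, CAPN1, OCIAD1, CTDSP2, NUTF2, GPD1 and TC1A. The lower probes of OCIAD1 (C035R010) and TC1A (C119R127) were not called without any 1 of 8 and any 1 of 9 arrays (adjusted p up to 0.0916 and 0.0936). GPD1, which links glycolysis to glycerol and the shuttling of reducing power, rose by 0.908 on C163R092 and fell by 0.90 and 1.05 on C141R054 and C013R134. CAPN1, a calcium-dependent protease, had its largest change on C253R089, a rise of 2.32 with WN fish between −0.41 and 1.16 and CT fish between −2.90 and −1.22. For 54 symbols the probes matched at least 2 RefSeq genes, and 45 of these had 1 sign throughout.

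Some of the largest changes lay outside these lists. DHRS13, a short-chain dehydrogenase, rose by 3.07 (C168R126, SE 0.354, adjusted p = 1.4e-05), with WN fish from −0.24 to 1.28 and CT fish from −3.45 to −1.48. MPDZ, a scaffold protein with many PDZ domains, rose by 2.92 (C239R160, SE 0.326, adjusted p = 8.66e-06), with WN fish from −0.02 to 0.74 and CT fish from −3.23 to −2.0. LOC106570920 and LOC106613965, uncharacterised here, rose by 2.33 and 2.18. PTP4A2, a phosphatase, fell by 1.07 (SE 0.179, adjusted p = 0.000866), and RDH12, a retinol dehydrogenase, was called at −1.13 but not without any 1 of 5 arrays (adjusted p up to 0.0846). Of the probes without a symbol, C236R084 and C151R108 fell by 3.00 and 2.83. C151R108 stood between −2.58 and −0.99 in WN fish and between 0.49 and 2.00 in CT fish. C028R151 rose by 1.71 (0.893 to 6.41 over the alternatives, and not called with plain background subtraction or spot means). C161R162 rose by 1.49 (0.96 to 4.66, and not called after centring on the median).

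Over 23621 probes with values in all 4 tanks, the median size of the difference was 0.263 between the WN tanks and 0.251 between the CT tanks, where 3 fish stood against 3, and 0.268 between WN and CT, where 6 stood against 6. Both tank differences were smaller than the difference between WN and CT for 35% of these probes. Called probes were chosen for a large difference between WN and CT, so that the counts which follow describe them and support nothing. For 1162 of 1179 called probes both differences between tanks, within WN and within CT, were smaller than the difference between WN and CT, and for all 1179 the means of both WN tanks lay beyond those of both CT tanks. Among called probes the median size of the tank difference was 0.234 in WN and 0.223 in CT. On 3 slides that held arrays of both treatments, 1037 of 1076 called probes with a value on each kept their sign on all of them. Between the WN tanks 1 probe of 23719 passed the threshold (0.00422%), C006R091, which has no symbol, and 5.29% had an unadjusted p under 0.05. It stood at 0.906, 0.656 and 1.06 in the fish of tank 2 and at −2.38 and −3.27 in 2 fish of tank 5, a difference of −3.70 (adjusted p = 0.00686), and the call was lost without WN-1, WN-3, WN-4 or WN-5. Between the CT tanks no probe of 23747 passed by limma (0%), and 5.00% had an unadjusted p under 0.05.

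The spread between fish was also compared. The median SD over probes was 0.442 in WN and 0.398 in CT, and 13870 of 23846 probes had the larger SD in WN. A test of the absolute deviations called 5 probes (0.021%, against 9.42% at an unadjusted p under 0.05), none with a symbol and all wider in WN. C120R133 spread between −1.21 and 1.21 in WN fish and between −0.0855 and 0.456 in CT fish, and C067R170 between −1.19 and 0.98 in WN fish and between −0.146 and 0.265 in CT fish. None of the 5 was called when the fit held only the 12 WN and CT arrays. Among named probes the smallest p for spread belonged to LHFPL4, MMP13, STOM, TMSB4X and gck, and none passed after adjustment. STOM, a membrane protein abundant in red cells, rose by 1.52 (adjusted p = 0.00963), but the fish of WN tank 2 stood at 0.651 to 0.784 and those of WN tank 5 at −1.1 to −0.828, next to CT fish at −1.88 to −0.898. LHFPL4 stood near −4 or below in 3 CT fish (−3.95, −5.09 and −4.56) and near 0 in the others, and its difference of 2.48 was not called.

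**Figure D5:**
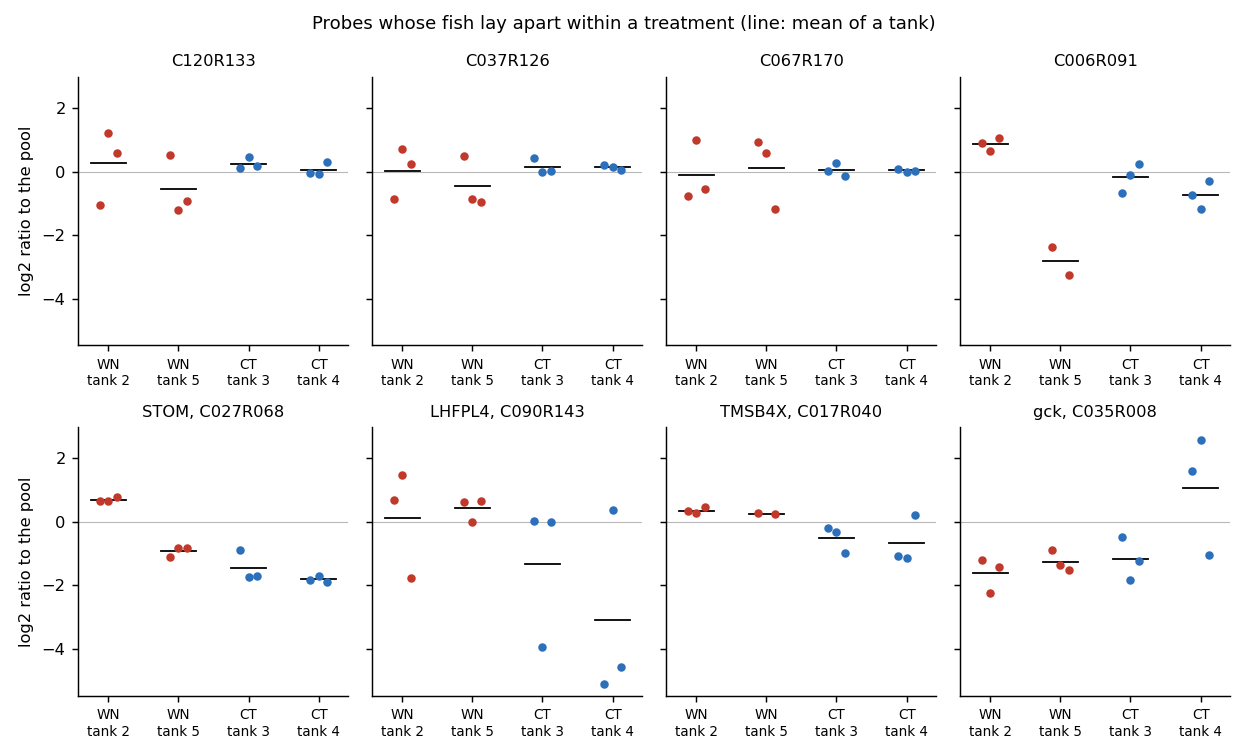
Log2 ratio to the common pool (y axis) of single fish by tank, WN tanks left and CT tanks right, for 4 of the 5 probes called for spread (upper row) and 4 named probes with small p for spread (lower row); lines are tank means. C006R091 and STOM part the WN tanks, and LHFPL4 and gck spread among CT fish.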

How the data were processed

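Liver RNA of 18 salmon was hybridised on 18 two-colour 44K salmonid arrays, with the single fish in Cy5 and a pool of all fish in Cy3 and no dye swap. The deposited files hold the intensity of each spot and its local background as measured by the authors in ImaGene, with the spot flags. A deposited table also holds the authors' log2 ratios after background correction, loess and imputation, and it served as an alternative only. Here spot medians were corrected by normexp (offset 50), normalised by loess and set to missing where flagged, in R 4.3.3 with limma 3.58.1. Probes had to be unflagged and above background by 2 SDs of the background in at least 1 channel on 14 of 18 arrays. Group means of the 3 treatments were fitted by lmFit and eBayes, with the contrast WN minus CT and Benjamini-Hochberg adjustment at 0.05 over all probes tested. The study used SAM, which was not available. Spread was tested on absolute deviations from the group mean, and tanks in a fit of 6 tank means. Symbols came from tables of the study (1440 probes from its list of called probes, 14 from its PCR panel). Named were the 10 largest rises and falls without overlap, the 4 genes with the largest called change, the lead genes and the largest exception of each list, the PCR panel, symbols with at least 3 probes called both ways and the 5 smallest p for spread. Members and lists were chosen with earlier results of these data known, and no list was tested. Replicate numbers in the labels only name the fish, since the deviations of same-numbered fish correlated between −0.0954 and 0.117. P-values measure the spread between fish. The number of arrays limits the precision. Alternatives covered background correction, normalisation, flags, filters, the authors' values, slide, tank and replicate as blocks, single slides and each fish left out. Saturated spots kept was added after seeing the data. Some items are not reported here.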

Additional observations from a re-analysis of the deposited data

Results flagged for a closer look

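Over the named probes and the array measures together, 22 of 419 groups had 1 value set far apart from the others by Dixon's criterion. Chance marks about 1 in 20 groups. All 22 belonged to named probes. Among WN fish these were CLU (C082R076) in WN-2 at 1.39, CTDSP2 (C130R029) in WN-2 at −1.52, SRPK1 (C150R089) in WN-3 at 1.35, C161R162 in WN-3 at −0.63, HSPD1 (C126R097) in WN-5 at −1.22, PYCRL (C092R005) in WN-6 at 0.57 and PARP1 (C250R051) in WN-6 at −1.60. Among CT fish, SEPW1 (C155R164) stood apart in CT-1 at −0.86 and STOM (C027R068) in CT-1 at −0.90. CT-2 was apart for CTDSP2 (C130R029) at 1.07, TC1A (C054R125) at −1.15, ACSS2 (C165R037) at −0.34 and CYP1A1 (C206R091) at −1.08. CT-3 was apart for CALML3 (C219R132) at −0.53 and MFAP2 (C261R079) at 1.19, and CT-4 for hsp90ab1 (C021R073) at −0.32 and TFPI (C039R146) at −2.61. CT-5 was apart for C3 (C097R144) at 1.11 and MMP13 (C245R152) at −1.37, and CT-6 for RDH12 (C061R061) at 1.15, MFI2 (C204R065) at −2.49 and C161R162 at −2.73. The values are log2 ratios to the common pool.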

How the results depend on the processing

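The number of probes called between WN and CT was 1179 and lay between 787 (slide as a fixed block) and 1620 (tank as a random block) over the alternatives not given below. The correlation within tanks was estimated at −0.0501, and a negative value makes the standard error smaller. The count of 1620 therefore does not allow for the tank as the unit that received the treatment. It was 473 after centring each array on its median (118 higher, 24.9% of the calls, with a shift of −0.135 in the median of all probes) and 1436 after scaling between arrays (48.2% higher, against 37.7% here). A minimum change of 0.5 on the log2 scale left 115. Leaving out 1 fish gave 754 (without CT-6) to 1110. For spread, 5 probes were called, with 0 in the fit of 12 arrays, 2 after median centring, 12 with the authors' values and 0 to 11 with 1 fish left out. Between the WN tanks 1 probe was called, and 0 to 1 with 1 fish left out. Between the CT tanks none was called under any of the alternatives run. With the replicate number as a block 1006 probes were called, and since the numbers pair no fish (1 of 6 correlated best with its own number) this says nothing of pairing. The sign of 4 differences changed. TAF15 (C035R110) was 0.314 within slide 4, DUT (C219R085) 0.0539 within slide 3 and PARP1 (C250R051) −0.816 within slide 3, and camp-a (C234R046), not called, was −0.155 with spot means and −0.0131 (without CT-6) to 0.785 with 1 fish left out. The cause was not tested. The counts that follow leave out the single slides and the minimum change of 0.5. The difference of 14 of 167 called named probes moved by more than 1.5 times under some alternative, among them SERPINH1 (C236R132, 1.58 to 6.43), EFEMP2 (0.938 to 2.76) and JUND (1.57 to 3.37). Of those 167, 71 stayed called under every other alternative that gave a value, 46 were lost under 1 to 3 and 50 under more. With the minimum change of 0.5, only 46 probes with a symbol were called, 44 higher and 2 lower. Probes in a dim channel or at background give a difference of uncertain size.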
